A study of Homo sapiens with 12 samples.

Results

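Myoferlin (MYOF) and its relatives, the ferlins, are described here in a line of lung cancer cells sorted by their place in an invading chain. The members were the 5 ferlin genes on the list MYOF, DYSF, OTOF, FER1L5 and FER1L6. Of these, 3 had a gene symbol in the annotation of the array platform (MYOF, OTOF and FER1L6, with 1 probeset each), out of 14884 symbols measured. DYSF and FER1L5 had none and were not analysed here. MYOF was put on the list with its own values known: it was selected on its low value in leader and follower cells, pooled, against the invasive control cells, so that difference is given as a description, with no test.

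The cells were H1299, an established human non-small cell lung cancer line, carrying Dendra2, a protein that turns from green to red under violet light. Spheroids invaded Matrigel, cells were marked by photoconversion under the microscope, and small pools of sorted cells were collected, 3 wells per group. Leader cells sat at the tip of an invading chain and follower cells behind them, and both were picked out by photoconversion. The 2 control groups were invasive photoconverted cells (IR) and invasive non-photoconverted cells (NG), so NG was the group in which no conversion had been done. All groups shared the same line and the same Dendra2 construct, with no drug or gene knockdown. The amplified cDNA of each well was hybridized to 1 Affymetrix Human Gene 2.0 ST array, 12 in all. The labels do not say whether wells of a group came from separate cultures, and p-values then measure only the spread between these arrays, which may be technical. With pools of cells, fewer cells expressing a gene and less RNA per cell cannot be told apart.

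Ferlins are large proteins of the membrane, anchored by a tail and carrying a row of C2 domains, modules that bind phospholipids and in many proteins do so with calcium. They act where membranes fuse or are resealed. Myoferlin is known for the fusion of myoblasts, for the repair and receptor traffic of endothelial membranes, and for its presence in several carcinomas. Dysferlin (DYSF) reseals the torn membrane of muscle fibres, and otoferlin (OTOF) serves calcium-triggered release at the synapse of the inner hair cell. FER1L6 has been tied to muscle development in zebrafish, and the mouse FER1L5 protein to myoblast fusion.

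The promoter of MYOF is shown because MYOF is the member that most of the values below describe. It is the 250 bases before the RefSeq transcription start in GRCh38.p14, chr10:93482335-93482584 on the minus strand, written along the gene. Capitals mark both occurrences of GGAAA, the core of NFAT sites, searched on both strands (here as TTTCC). NFAT factors are known to act on the myoferlin gene in mouse muscle.
MYOF: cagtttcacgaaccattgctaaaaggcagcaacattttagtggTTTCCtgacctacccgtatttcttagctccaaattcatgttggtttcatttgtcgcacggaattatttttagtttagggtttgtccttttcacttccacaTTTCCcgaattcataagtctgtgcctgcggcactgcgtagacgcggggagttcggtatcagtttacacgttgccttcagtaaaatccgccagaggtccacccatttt
The matches begin 207 and 107 bases before the start, and GGAAA occurs in 55.6% of 35116 promoters of the same length. The stretch also holds 1 E-box (CANNTG, in 61.8% of promoters), 161 bases before the start and apart from both GGAAA matches. No match was found to the AP-1 letters TGANTCA (6.57% of promoters), the GC box GGGCGG (42.6%), CCAAT (32%) or TATAAA (10.7%). The stretch holds 12 CpG dinucleotides and 44.4% G or C, where the medians over all promoters were 11 and 58.0%. The arrays measured RNA only, so these letters are a description of the locus.

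MYOF values were lowest in leader cells and highest in NG cells. In leader cells the log2 values were 3.58, 3.28 and 3.08 (mean 3.31 ± 0.25, SD, n = 3). In follower cells they were 3.86, 3.95 and 3.45 (3.76 ± 0.27). The 3 IR arrays gave 4.08, 4.45 and 3.94 (4.16 ± 0.26). The 3 NG arrays gave 5.24, 5.02 and 5.14 (5.13 ± 0.11). The NG arrays stood above all 9 others. The share of all genes with such a split was not computed, and high NG values are part of the difference on which MYOF was chosen. Neighbouring groups below them overlapped: the highest leader array (3.58) exceeded the lowest follower array (3.45), and the highest follower array (3.95) exceeded the lowest IR array (3.94) by about 0.01 on the log2 scale. The whole span over the 12 arrays was 2.16 on the log2 scale, from 3.08 to 5.24.

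**Figure D1:**
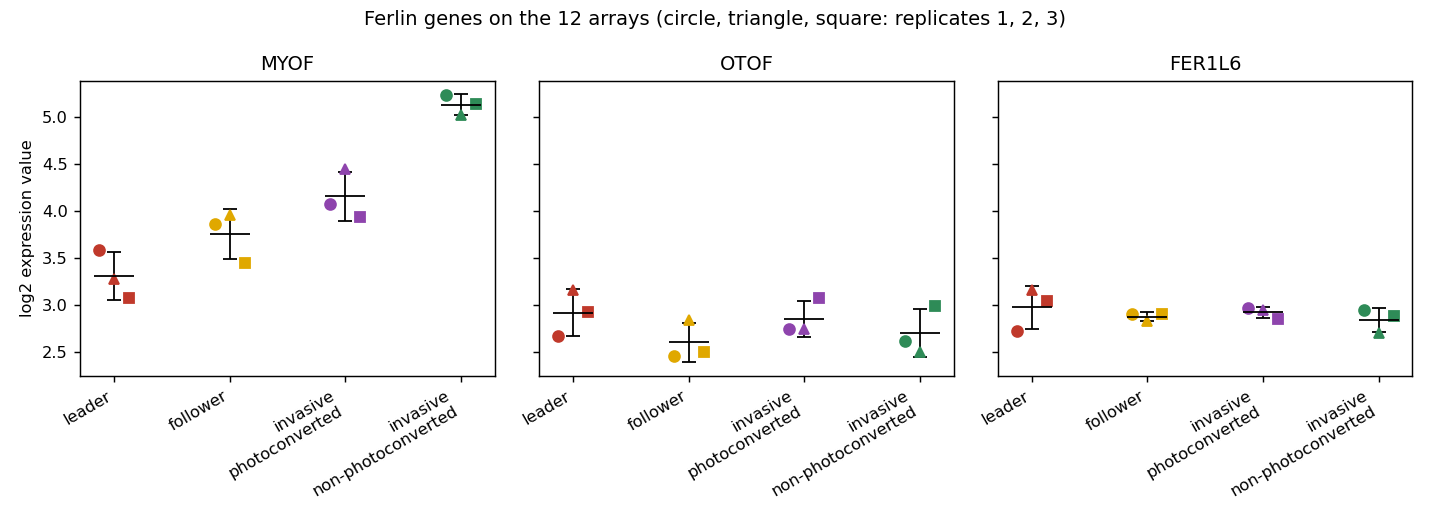
The log2 expression value of MYOF, OTOF and FER1L6 is plotted for each of the 12 arrays in 4 groups, with black bars for the mean ± SD of 3 arrays and symbols for replicates 1, 2 and 3. MYOF spans 3.08 to 5.24 with the 3 NG arrays on top, while OTOF and FER1L6 stay between 2.47 and 3.17 in every group.

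The difference on which MYOF was chosen was large for this table. Leader and follower cells together lay below the mean of both invasive control groups by a log2 difference of -1.11 (SE 0.15), a 2.16-fold lower value. By size, 78 of 14884 genes (0.524%) had a difference at or below it. Taken apart, leader cells differed from IR cells by -0.84, a 1.79-fold lower value, and their arrays did not overlap. The same held for 4.53% of genes in that direction. Follower cells differed from IR cells by -0.40, and their arrays overlapped. The control side of the pooled difference also holds the NG cells, whose MYOF mean was 5.13, against 4.16 in IR cells. NG was the only group without photoconversion, and the part of photoconversion in the pooled difference was not tested. Over the whole table, 1 gene of 14884 (0.00672%; PRTFDC1, named after its value was seen) passed limma's adjusted threshold of 0.05 for the pooled difference, and 0% did for leader against IR or follower against IR. OTOF and FER1L6 passed in none of these 3 comparisons, nor had they an unadjusted p under 0.05 there.

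What the choice of MYOF did not use was the difference within each pair of groups. The control comparison asks what photoconversion itself did to expression. There MYOF was lower in IR than in NG cells by -0.98 on the log2 scale (SE 0.21, 95% interval -1.43 to -0.52), a 1.97-fold lower value, and all 3 IR arrays lay below all 3 NG arrays. By p it ranked 14 of 14884 genes in limma's fit (unadjusted p = 0.000619). That p depended on how the variance was modelled: with a variance trend and a robust fit, limma's unadjusted p was 0.0121 (SE 0.34). MYOF did not pass after Benjamini-Hochberg adjustment over all genes (adjusted p = 0.614, and 0.403 to 0.998 over the alternatives tried). In this direction 3.01% of genes had an unadjusted p under 0.05 and 4.65% had arrays that did not overlap. MYOF was the 1 of 3 ferlins under that unadjusted level, and 0 of 3 passed the adjusted test, as did 0% of all genes. The residual spread that enters this test is the same that entered the choice of MYOF.

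The study set aside genes that changed between IR and NG cells, without naming the test or level of that step. Read as the methods' t-test at an unadjusted level of 0.05, it left out 686 genes, and read with Benjamini-Hochberg adjustment it left out 0. By the methods' t-test MYOF had p = 0.00403 (0.962 after Benjamini-Hochberg adjustment; not the exact test that 3 against 3 arrays would need, which cannot go below 0.10). Under the first reading, which is used here, MYOF was left out of the permutation procedure. Kept in, it was not called (permutation p = 0.898 for higher in follower cells). It would have been called after cyclic loess (permutation p = 0.034) and with signed control differences, a setting that called 5497 genes. After cyclic loess the MYOF difference was -0.38 between leader and follower cells and -0.79 between IR and NG cells. The rebuilt procedure counts permutations that reach both of its statistics together, so that small p does not show a difference larger than the control difference. The differences it permutes also share arrays and are not independent, so its p-values are descriptions.

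Leader and follower cells are the comparison the study was made for. MYOF was lower in leader cells by -0.44 (SE 0.21, 95% interval -0.90 to 0.02), a 1.36-fold lower value, with overlapping arrays. In limma's fit this gave an unadjusted p of 0.0569 and an adjusted p of 1.00. With a variance trend and a robust fit, limma's unadjusted p was 0.211. By size, 8.42% of genes had a difference at or below that of MYOF. None of the 3 ferlins had an unadjusted p under 0.05 here, against 613 of 14884 genes, and 0 passed the adjusted test. The leader-to-follower difference was not told apart from the one between IR and NG cells: the former less the latter was 0.53 (SE 0.29, 95% interval -0.11 to 1.18, unadjusted p = 0.0968, limma adjusted p = 0.996). Here too 0 of 3 ferlins were under 0.05 unadjusted and 0% of all genes passed.

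**Figure D2:**
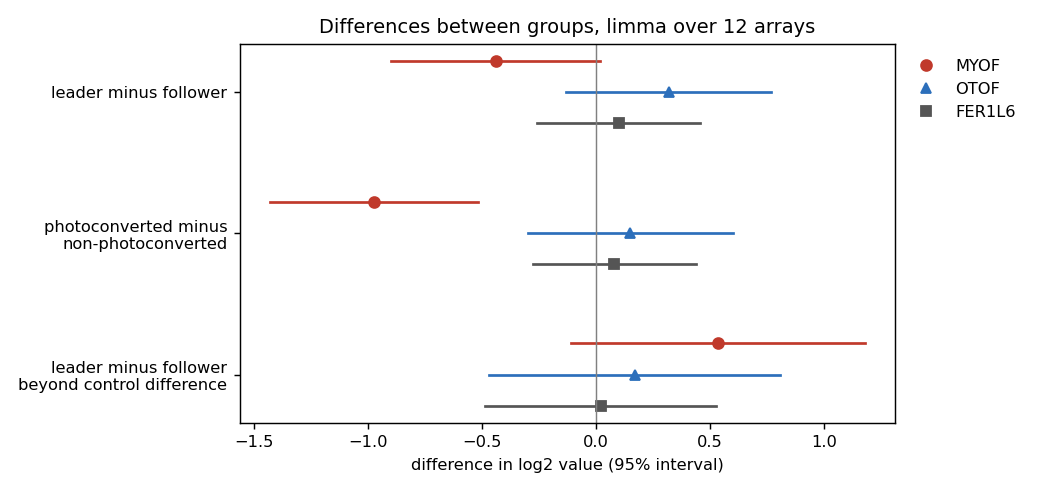
Differences in log2 value (points) with 95% intervals (lines) from limma's fit over 12 arrays are plotted for the 3 ferlins in leader minus follower, IR minus NG, and the first less the second. The interval of MYOF in IR minus NG, -1.43 to -0.52, is the only one that leaves out 0.

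OTOF and FER1L6 differed little between groups. Their means over the 12 arrays, 2.77 and 2.91, stood at percentiles 37.6 and 51.2 of all gene means. Both may thus lie near background, where a difference would hardly be seen, and whether they are expressed was not tested. The leader arrays gave OTOF log2 values of 2.67, 3.16 and 2.93, and the follower arrays 2.47, 2.85 and 2.5. The IR arrays gave 2.75, 2.75 and 3.07, and the NG arrays 2.62, 2.51 and 2.99. All 4 groups overlapped. The OTOF difference, leader minus follower, was 0.32 (95% interval -0.13 to 0.77, limma unadjusted p = 0.150). Between IR and NG cells it was 0.15 (-0.30 to 0.60), and between leader and follower cells together and both control groups it was -0.02 (-0.34 to 0.30). Against IR cells alone the OTOF difference was 0.07 for leader cells (-0.38 to 0.52) and -0.25 for follower cells (-0.70 to 0.20). None of these had an unadjusted p under 0.05, and intervals of this width leave room for changes of up to about 0.77 on the log2 scale.

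FER1L6 varied least. Its log2 values were 2.72, 3.17 and 3.04 in leader cells and 2.90, 2.83 and 2.91 in follower cells. They were 2.97, 2.95 and 2.85 in IR cells and 2.95, 2.70 and 2.88 in NG cells. The leader arrays thus held both the highest value and one of the lowest. The FER1L6 difference was 0.10 between leader and follower cells (95% interval -0.26 to 0.46), 0.08 between IR and NG cells (-0.28 to 0.44) and 0.04 for the pooled difference (-0.21 to 0.30). Against IR cells alone it was 0.05 for leader cells (-0.30 to 0.41) and -0.04 for follower cells (-0.40 to 0.31). The array also carries FER1L6-AS1, an RNA named as antisense to it, which gave 2.75, 3.28 and 3.16 in leader cells and 2.87, 2.94 and 3.11 in follower cells. Its correlation with FER1L6 over the 12 arrays was r = 0.78 (Spearman's rho 0.65), given as a description since both probesets share each array's amplification.

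The permutation procedure of the methods sets the differences between leader and follower cells against those between the controls. It permutes differences between pairs of arrays, and each array enters several of them. Such differences are not independent, so the permutation p-values and the counts of called genes are given as descriptions. The procedure called neither OTOF (permutation p = 0.29 for higher in leader cells) nor FER1L6 (permutation p = 0.53). It called 840 of 14198 eligible genes (5.92%), 464 with the higher value in leader cells and 376 in follower cells. Details of the procedure had to be chosen, and the count moved with them: 2700 and 2797 genes were called with signed instead of absolute control differences, and 231 and 171 with the leader and follower statistic alone. Without follower replicate 2 the counts were 629 and 741, so that the larger share was then in follower cells. OTOF and FER1L6 were not called in any of these. Without leader replicate 1, the permutation procedure called FER1L6 higher in leader cells (permutation p = 0.018), and 8.19% of genes were called then.

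The values of the 3 ferlins did not move together, with OTOF and FER1L6 perhaps near background. Over the 12 arrays MYOF correlated with OTOF at r = -0.23 and with FER1L6 at r = -0.38, while OTOF and FER1L6 correlated at 0.49. The SD over all arrays was 0.73 for MYOF, 0.23 for OTOF and 0.13 for FER1L6. Within groups, the SD of MYOF was 0.23 and that of OTOF also 0.23, so the larger span of MYOF came from the differences between groups.

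The arrays came from very little RNA and were not alike. Arrays correlated with each other at 0.542 to 0.760, on average 0.690 within groups and 0.682 between groups. The number of genes with a log2 value above 6 ran from 76 (follower replicate 3) to 332 (NG replicate 2). Over the 12 arrays this number correlated with MYOF at r = 0.61, with OTOF at -0.32 and with FER1L6 at -0.65. After each group's mean was taken off, the values were 0.31, -0.27 and -0.61. The NG array with 332 such genes was the lowest of the 3 NG arrays for MYOF (5.02), and the other two had 157 and 163. The part of this measure in the MYOF difference was not tested. Array medians stayed between 2.81 and 2.91, and the first quartile of gene means was 2.64. FER1L6 stayed above that quartile on all arrays, while OTOF lay below it on 4 arrays.

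The labelled line was checked on its markers. Vimentin (VIM), an intermediate filament of mesenchymal and many cancer cells, ran from 4.15 to 7.35 and keratin 18 (KRT18) from 3.23 to 4.39, both above every array median, while keratin 8 (KRT8) ran from 2.57 to 4.0. Of markers of other cell types, 3 of 5 for leukocytes, 3 of 5 for endothelium, 2 of 5 for fibroblasts, 3 of 7 for skeletal muscle and 5 of 6 for inner ear hair cells had a symbol. None was at 0, but values near the array medians do not show that a gene is expressed. The mean over the muscle markers (DES, MYOD1 and MYOG), which belong to the tissue where myoferlin is best known, was 2.42 to 3.01 in leader, 2.90 to 3.0 in follower, 2.81 to 2.99 in IR and 2.53 to 2.96 in NG arrays. The mean over the hair cell markers, the cells of otoferlin, was 2.98 to 3.04 in leader, 2.80 to 3.11 in follower, 2.62 to 2.97 in IR and 2.52 to 2.68 in NG arrays. The means were 2.71 to 3.18, 2.93 to 3.06, 3.11 to 3.40 and 3.03 to 3.15 for leukocyte markers in leader, follower, IR and NG arrays. For endothelial markers they were 3.04 to 3.22, 2.83 to 2.95, 2.80 to 2.99 and 2.86 to 2.91. For fibroblast markers they were 2.30 to 2.40, 2.20 to 2.78, 2.21 to 2.68 and 2.16 to 2.25. CD68, a lysosomal protein that tumour cells can also make, was the marker farthest above the array medians among these lists, at 3.36 to 4.97. The part of these markers in the MYOF difference was not tested.

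Ferlins work with other proteins of membrane repair and traffic, and 6 lists of such genes were set beside them. No gene of any list passed limma's adjusted test in any of the 6 comparisons, and so members are given by values. The median difference over all genes was 0.00 between leader and follower cells and 0.02 between IR and NG cells. Under an unadjusted p of 0.05 lay 2.14% of all genes as higher and 1.98% as lower in leader than in follower cells, and 1.85% as higher and 3.01% as lower in IR than in NG cells. The leader arrays lay wholly above the follower arrays for 5.01% of all genes and wholly below for 3.73%. For the pooled difference, 2.28% of genes were higher and 3.38% lower under that unadjusted level. Among the lists, these were 0 higher and 5 lower of 32 SNARE genes, 0 and 1 for the C2 tethers, 0 and 1 for membrane repair, and 0 in the 3 other lists.

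Membrane repair proteins and annexins are the partners that gather at a torn membrane with calcium. Of 22 listed, 14 were measured. Between leader and follower cells 5 were higher and 9 lower (median -0.10), with 1 higher and 0 lower at an unadjusted p under 0.05, and between IR and NG cells 4 were higher and 10 lower (median -0.22), with 0 and 1. S100A11, a calcium-binding partner of annexins in repair, gave 6.06, 5.58 and 5.0 in leader cells and 4.09, 4.96 and 4.42 in follower cells, with no overlap. Its difference was 1.06 (SE 0.41) there and -0.79 (SE 0.41) between IR and NG cells. ANXA7, annexin A7, had the lowest difference between leader and follower cells, -0.65 (SE 0.40), with 3.49, 2.74 and 2.41 against 3.24, 4.29 and 3.08, which overlapped. For the pooled difference the ends of the list were ANXA2 at 0.34 (SE 0.28) and ANXA5 at -0.60 (SE 0.39), both calcium-dependent phospholipid binders.

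ESCRT-III and VPS4 proteins pinch off or close membranes, also at wounds. Of 16 listed, 14 were measured: 5 were higher and 9 lower in leader than in follower cells (median -0.14), and 4 were higher and 10 lower in IR than in NG cells (median -0.21). Under an unadjusted p of 0.05 stood 1 higher and 0 lower gene in the first comparison and 0 and 1 in the second. Single arrays spread widely. CHMP2B gave 4.70, 2.19 and 5.62 in leader cells and 3.86, 3.20 and 2.26 in follower cells, a difference of 1.06 (SE 0.84). CHMP5 gave 4.35, 2.33 and 2.88 against 3.71, 6.28 and 2.47, a difference of -0.97 (SE 0.98). These subunits of the ESCRT-III filament had standard errors about as large as their differences. In the pooled difference CHMP1A was at 0.40 (SE 0.28) and CHMP4B, a main filament subunit, at -1.37 (SE 0.67).

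Caveolae, EHD proteins and dynamins shape and recycle the surface membrane. Of 18 listed genes, 15 were measured, with 11 higher and 4 lower in leader than in follower cells (median 0.07) and 7 higher and 8 lower in IR than in NG cells (median -0.01), 0 of them at an unadjusted p under 0.05. EHD2, a known binder of myoferlin, gave 2.35, 2.83 and 3.03 in leader and 2.85, 2.60 and 2.18 in follower cells. EHD1, a recycling ATPase, had the highest difference at 0.45 (SE 0.25), and the muscle cavin CAVIN4 the lowest at -0.39 (SE 0.24). The pooled difference ran from 0.18 (SE 0.12) for EHD3 to -0.35 (SE 0.25) for DNM2, the widely expressed dynamin. CAV1, the main coat protein of caveolae, was not analysed here.

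Receptors whose surface level has been tied to myoferlin were measured for 7 of 11 listed genes. In leader cells 3 were higher and 4 lower than in follower cells (median -0.11), with 2 higher and 0 lower at an unadjusted p under 0.05, and in IR cells 4 were higher and 3 lower than in NG cells (median 0.06), with 0 under it. The VEGF receptor gene KDR gave 2.52, 2.83 and 3.60 in leader and 2.61, 2.52 and 2.90 in follower cells. EGFR, the receptor of epidermal growth factor, gave 2.60, 2.45 and 2.41 in leader and 2.59, 2.42 and 2.78 in follower cells. Both overlapped. NRP1, a VEGF co-receptor, gave 2.91, 3.19 and 3.20 against 2.52, 2.76 and 2.79 with no overlap, a difference of 0.41 (SE 0.17). KDR, EGFR, NRP1 and IGF1R stood at percentiles 31.7, 13.2, 46.2 and 6.62 of all gene means and may lie near background. IGF1R, the IGF receptor, was lowest at -0.32 (SE 0.31) between leader and follower cells and highest in the pooled difference at 0.32 (SE 0.22), where MET, the receptor of hepatocyte growth factor, was at -0.27 (SE 0.20).

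Synaptotagmins and other C2 tethers share the C2 domain with ferlins. Of 39 listed, 33 were measured, with 15 higher and 18 lower in leader than in follower cells (median 0.00) and 20 higher and 13 lower in IR than in NG cells (median 0.07). Under an unadjusted p of 0.05 were 0 genes in the first comparison and 1 higher and 1 lower in the second. SYT3, a synaptotagmin, had the highest difference between leader and follower cells at 0.39 (SE 0.25) and RIMS1, a scaffold of the presynaptic active zone, the lowest at -0.35 (SE 0.21). In the pooled difference SYT1, the calcium sensor of synaptic vesicles, was at 0.32 (SE 0.20). SYTL2, a RAB27 effector, was at -0.45 (SE 0.13) with an unadjusted p of 0.0061 in limma's fit.

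SNARE proteins carry out the fusion that ferlins are thought to assist. Of 42 listed, 32 were measured, with 20 higher and 12 lower in leader than in follower cells (median 0.06) and 14 higher and 18 lower in IR than in NG cells (median -0.03). Under an unadjusted p of 0.05 were 0 higher and 1 lower in the first comparison, and 2 higher and 1 lower in the second. The endosomal SNAREs stood at both ends between leader and follower cells. STX7 was at 0.94 (SE 0.69) and VTI1B at -0.94 (SE 0.33). VTI1B gave 4.02, 3.38 and 3.25 in leader and 4.61, 4.12 and 4.75 in follower cells with no overlap. In the pooled difference STX11, a syntaxin of cytotoxic cells, was at 0.17 (SE 0.16) and NSF, the ATPase that takes SNARE complexes apart, at -1.18 (SE 0.45).

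**Figure D3:**
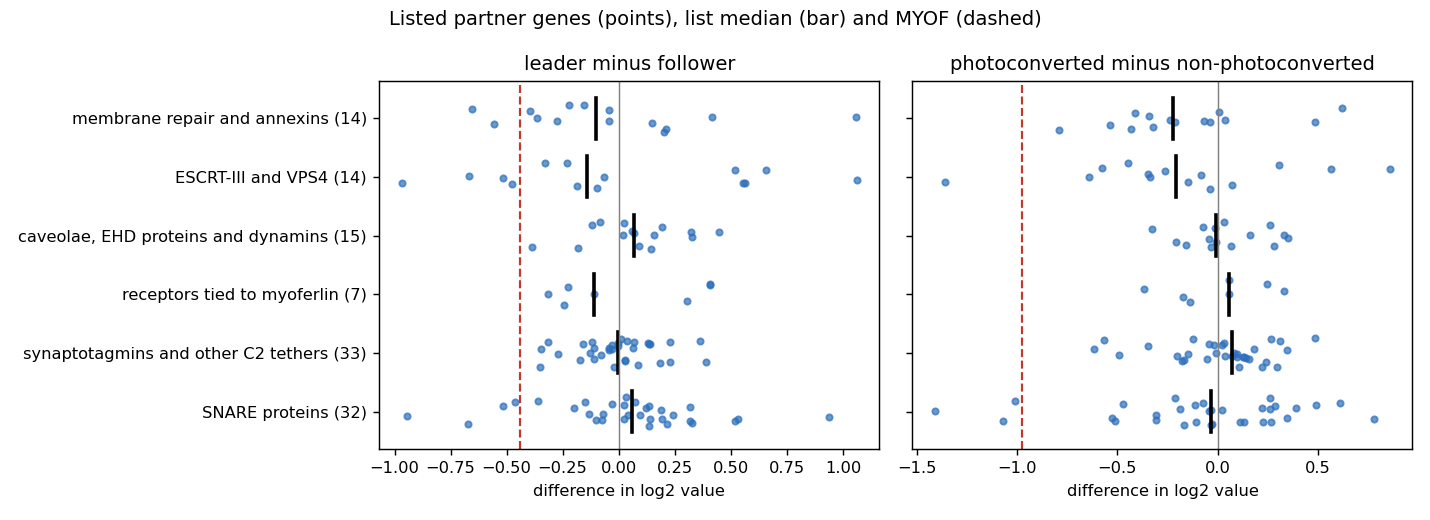
Each point is a measured gene of a list, placed by its difference in log2 value in leader minus follower (left) and IR minus NG (right), with the list's median as a black bar, the number of genes in brackets and the MYOF value as a dashed line at -0.44 and -0.98. List medians lie between -0.14 and 0.07 on the left and between -0.22 and 0.07 on the right.

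The genes most like MYOF over the 12 arrays, by Pearson's r, were SEPTIN11 (0.91), USP16 (0.88), HNRNPAB (0.88), IFT57 (0.87) and SEH1L (0.87). SEPTIN11, a septin of the cytoskeleton, gave 2.47, 2.58 and 2.49 in leader, 2.61, 2.64 and 2.58 in follower, 2.58, 2.89 and 2.74 in IR and 3.34, 3.21 and 3.72 in NG cells. USP16, a deubiquitinase of histone H2A, gave 4.12, 3.42 and 3.41 in leader, 4.12, 4.59 and 3.52 in follower, 3.52, 4.66 and 3.89 in IR and 4.95, 4.80 and 5.23 in NG cells. In each of these genes, as in MYOF, the mean of the NG arrays was the highest. HNRNPAB binds RNA, IFT57 belongs to the transport machinery of cilia and SEH1L to the nuclear pore. Their NG means were 5.98, 5.35 and 5.90, and their leader means 4.40, 3.49 and 3.26.

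With the group means taken off, USP16 still followed MYOF (r = 0.87), whereas SEPTIN11 was at 0.27, SEH1L at 0.34, IFT57 at 0.49 and HNRNPAB at 0.54. The most opposite genes were PVALB (-0.90), LGR6 (-0.87) and TP53I13 (-0.86), with leader means of 2.53, 3.28 and 3.22 and NG means of 1.96, 2.58 and 2.43. PVALB encodes parvalbumin, a calcium buffer, and LGR6 a receptor of R-spondins. PVALB, SEPTIN11 and TP53I13 stood at percentiles 3.39, 42.8 and 46.4 of all gene means and may lie near background. LGR6 stood at 58.5, and USP16, HNRNPAB, IFT57 and SEH1L at 95.2 to 98.4. All these r values are descriptions over the same 12 arrays. The list itself moved with the setting: 2 of the 5 remained among the top 5 with Spearman's rho, 1 after cyclic loess, and 1 to 5 when a single array was left out.

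**Figure D4:**
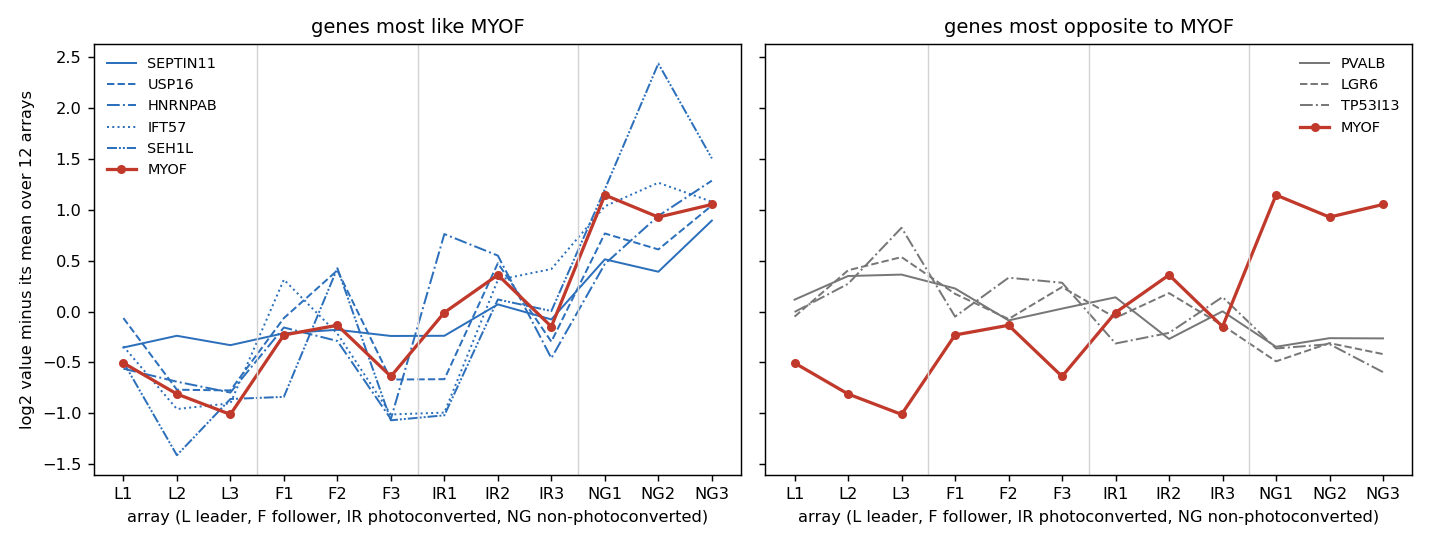
The log2 value of each gene, less its mean over 12 arrays, is plotted by array for MYOF (red) with the 5 most alike genes (left, r 0.87 to 0.91) and the 3 most opposite (right, r -0.90 to -0.86). The alike genes peak in the NG arrays, where the opposite ones are lowest.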

How the data were processed

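RNA from small pools of sorted cells, 3 wells for each of 4 groups, was amplified and hybridized to 12 arrays. The authors deposited log2 values that were corrected for GC content and background (RMA), quantile normalized and averaged into probesets; the submitters' notes name Partek 6.6. For the genome build nothing is stated in the sources at hand. Quantile normalization gives arrays equal distributions, so a shift of all genes cannot be seen, and array number limits the precision.

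Of 53617 probesets, 16098 carried 1 symbol; for each of 14884 symbols the probeset of highest mean was used. Groups were compared with limma 3.58.1 in R 4.3.3 (4 groups in 1 fit, Benjamini-Hochberg adjustment over all symbols, threshold 0.05). The methods' permutations (500) were rebuilt in Python 3.11.15 with NumPy 2.4.6; details not stated had to be chosen. Fits were tested on simulated data. Members and gene lists were chosen with earlier results of these data known. Named genes were the ferlins, the 5 genes most and 3 least correlated with MYOF, each list's highest and lowest gene in leader minus follower and the pooled difference, and KDR, EGFR, CAV1 and EHD2; CD68 was named after its values were seen. The alternatives tried were median centring, cyclic loess, a filter at the 50th percentile of level, all probesets, means of probesets, other variance settings, array weights, fewer groups, a replicate block and single arrays left out. Promoters came from RefSeq tables, where 3 of the listed ferlins (MYOF, OTOF and DYSF) matched by symbol.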

Additional observations from a re-analysis of the deposited data

How the results depend on the processing

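Of 509 values of 25 results under alternative settings, 494 kept their direction and their side of the threshold. Many of these could not turn, so the count is not a measure of stability. Settings that alter only the spread, or leave out an array outside the comparison, return the same difference. The MYOF difference between leader and follower cells, for example, stayed at -0.44 with all probesets and with a replicate block. In the comparisons in which each was tested (3 for MYOF, 6 for OTOF and FER1L6), no ferlin passed limma's adjusted test under any setting. By the methods' t-test, unadjusted, 1 ferlin (MYOF) passed between IR and NG cells, as did 686 of 14884 genes. Limma's unadjusted test there also had 1 ferlin, and both tests had 0 after Benjamini-Hochberg adjustment. The permutation procedure called 0 to 1 ferlins when single arrays were left out, the 1 being FER1L6 without leader replicate 1, when 1163 of 14198 genes (8.19%) were called. Over single arrays left out, it called 650 to 1370 genes, against 840 with all arrays.

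The MYOF difference between leader and follower cells together and both control groups was -1.18 to -1.03 when single arrays were left out and -0.91 after cyclic loess. Between IR and NG cells it was -1.12 to -0.87 and -0.79, and between leader and follower cells -0.59 to -0.32 and -0.38.

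All 13 changes of direction were in OTOF or FER1L6 with 1 array left out, and none of these differences passed limma's adjusted test under any setting. The pooled difference of OTOF ran from -0.0782 to 0.0541, and that of FER1L6 from -0.0023 to 0.108. Leader minus IR ran from -0.0545 to 0.192 for OTOF and from -0.0392 to 0.182 for FER1L6. FER1L6 in leader minus follower beyond the control difference ran from -0.0737 to 0.147.

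The labels do not say whether arrays of the same replicate number were paired. With group means taken off, 3 of 18 same-numbered pairs correlated over 0.1 (-0.071 to 0.217). Among arrays of other groups, 5 of 12 arrays correlated best with an array of their own number. So few and variable arrays cannot decide whether there was a pairing. With the replicate number as a block, MYOF had an adjusted p of 0.980 in limma between leader and follower cells and of 0.481 between IR and NG cells, and 0 ferlins passed in any comparison in which they were tested (MYOF was not tested in the 3 it was chosen on).

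OTOF was removed by the filter on level and has no value there. With 3 arrays per group and small amplified pools, the 95% interval of OTOF ran from -0.13 to 0.77 for leader minus follower, and a MYOF difference of -0.98 did not pass over all genes.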
